A study of Mus musculus with 9 samples.

Results

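The 4 Hox clusters of the mouse genome were described by the StyI fragments whose midpoints lie inside HoxA (mm9 chr6:52100000-52225000), HoxB (chr11:96050000-96240000), HoxC (chr15:102740000-102880000) or HoxD (chr2:74480000-74615000). They held 854 of 3053721 fragments, with 190 in HoxA, 259 in HoxB, 204 in HoxC and 201 in HoxD. The 300 kb on each side of each cluster, its flanks, held another 2942. The limits were given by position alone, and the tag counts were not used to set them.

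Hox genes encode homeodomain transcription factors that give cells their position along the head-to-tail axis of the embryo. Each cluster carries its genes in a row, and the genes come on in the order in which they stand, from the anterior end of the cluster to the posterior end. In embryonic stem cells the clusters are mostly silent and are textbook targets of Polycomb repression.

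The material was nuclei and genomic DNA of E14Tg2a, a line of mouse embryonic stem cells with a 129P2 background, grown on gelatin with LIF. The labels name no treatment or genotype difference between groups, but whether the inputs and the fractions share 1 condition cannot be told from them. High-salt recovered sequences (HRS) are the StyI fragments that stay with the insoluble nuclear material after high-salt extraction, and the Loop fraction is the DNA that StyI releases. The groups were HRS (3 libraries), Loop (3 libraries) and input, which is unfractionated DNA (3 libraries titled D0, D12 and D21, titles that the labels do not explain). All libraries come from 1 cell line, and no label says that the replicates are separate cultures, so p-values speak only of the spread among these libraries, and that spread may be technical. More nuclei that retain a region and firmer retention in each nucleus cannot be told apart in pooled nuclei, and DNA counts carry no marker of cell identity.

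In the RefSeq gene order (assembly GRCm38.p6), rising coordinates run from the anterior to the posterior end of HoxA, with Skap2 before and Evx1 after the cluster. The order is reversed in the other clusters. HoxB runs from Hoxb13 to Hoxb1 with Skap1 beyond, HoxC from Hoxc13 to Hoxc4 with Smug1 beyond, and HoxD from Evx2 and Hoxd13 to Hoxd1 with Mtx2 beyond. This order gives each cluster an anterior and a posterior end in the text. No mm9 annotation was used here, so no bin or fragment was placed in a gene.

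StyI cuts at CCAAGG and its reverse complement CCTTGG, and at the palindromes CCATGG and CCTAGG, and these letters decide where a fragment begins and ends. Promoter windows from 250 bases before to 50 after a gene's start were looked up in RefSeq (GRCm38.p6) for 41 Hox and Evx genes, of which 24 matched with 26 windows. Of these, 8 (30.8%) held a site, against 34.5% of all 32851 windows in that table. The sites were unevenly spread, in 6 of 10 Hoxd windows, 1 of 10 Hoxa, 1 of 3 Hoxb and 0 of 1 Hoxc. The median window of the set held 4.83 CG dinucleotides per 100 bases, against 2.33 in all windows. The 3 windows below, 1 for each of the 3 clusters that had any, show such cut points in capitals (Hoxd13 stands for the 6 Hoxd windows). Hoxa9 acts in blood and posterior patterning, Hoxb1 sets hindbrain identity, and Hoxd13 shapes digits. Their coordinates are those of GRCm38.p6, another build than that of the counts, and no count was placed on them.
Hoxa9 (chr6:52227321-52227620, minus strand): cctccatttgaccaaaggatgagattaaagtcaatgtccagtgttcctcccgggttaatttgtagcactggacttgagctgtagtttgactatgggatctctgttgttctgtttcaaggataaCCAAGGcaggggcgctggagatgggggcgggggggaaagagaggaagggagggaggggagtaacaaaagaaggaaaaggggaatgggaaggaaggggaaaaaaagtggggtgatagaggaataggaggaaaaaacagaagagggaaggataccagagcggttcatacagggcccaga
Hoxb1 (chr11:96365508-96365807, plus strand): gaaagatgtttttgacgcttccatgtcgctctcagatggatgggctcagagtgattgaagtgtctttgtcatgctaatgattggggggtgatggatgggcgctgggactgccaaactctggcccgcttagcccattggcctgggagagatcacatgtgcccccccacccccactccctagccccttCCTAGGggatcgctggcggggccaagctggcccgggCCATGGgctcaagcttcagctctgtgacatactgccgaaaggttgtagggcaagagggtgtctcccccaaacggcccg
Hoxd13 (chr2:74667975-74668274, plus strand): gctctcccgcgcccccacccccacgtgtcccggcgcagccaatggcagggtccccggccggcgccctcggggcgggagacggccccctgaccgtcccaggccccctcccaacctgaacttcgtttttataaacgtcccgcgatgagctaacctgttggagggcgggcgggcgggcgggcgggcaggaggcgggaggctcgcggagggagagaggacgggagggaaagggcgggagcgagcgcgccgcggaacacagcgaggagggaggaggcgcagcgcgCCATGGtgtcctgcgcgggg

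The clusters were cut a little more densely than the genome, with 14.5 fragments per 10 kb against 11.8 genome-wide, and 12.25 in the flanks. Density was 15.3 in HoxA, 13.6 in HoxB, 14.5 in HoxC and 15.0 in HoxD. The median fragment was 416.5 bp in HoxA, 545 bp in HoxB, 471 bp in HoxC and 423 bp in HoxD, and 539 bp over the genome. Fragments of up to 200 bp made up 32.6% of HoxA and 33.3% of HoxD, against 23.4% of the genome, while HoxB (22.0%) and HoxC (24.5%) lay near that share. All but 20 of the 854 fragments (2.34%) had a count in at least 1 library, against 16.4% never counted genome-wide and 6.02% in the flanks. Of the 20, 14 were at most 24 bp long.

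The fragment tables summed to between 39051731 and 52464828 counts in HRS, 58734270 and 62928317 in Loop, and 55212054 and 62169685 in input. The clusters together took 599, 512 and 883 CPM (the cluster count scaled to the library's own total) in HRS replicates 1, 2 and 3. They took 480, 497 and 496 CPM in the Loop replicates and 494, 436 and 446 CPM in the D0, D12 and D21 inputs. HRS replicate 3 stood far above the other libraries, and the other 2 HRS libraries also lay above all Loop and input libraries. With 24603 to 34499 cluster counts a library, the 95% Wilson interval of HRS replicate 3 ran from 874 to 893 CPM and that of HRS replicate 2 from 506 to 518 CPM. These intervals cover counting error only.

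**Figure D1:**
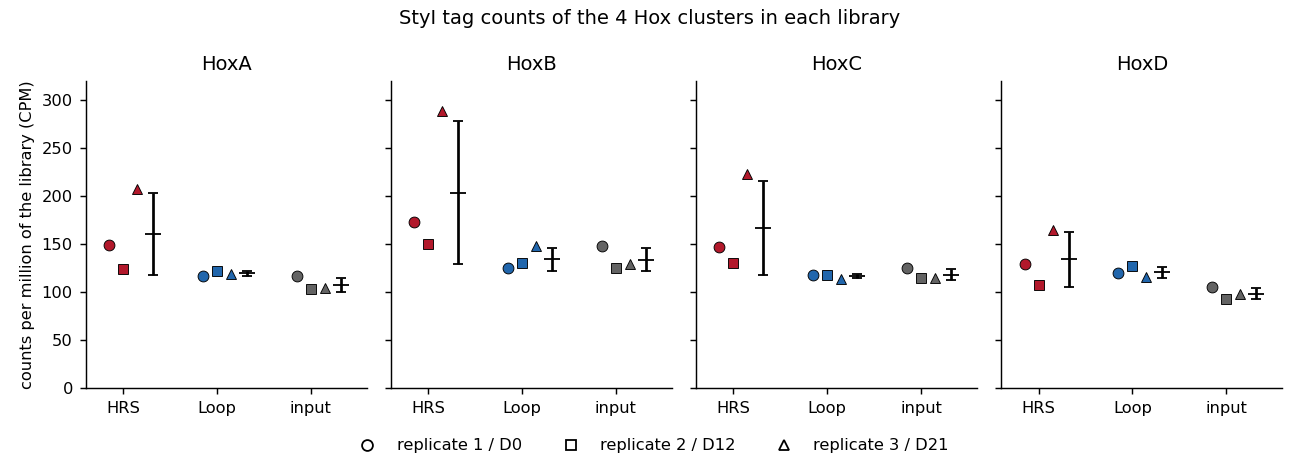
CPM (of each library's total) of each Hox cluster in the 3 HRS (red), 3 Loop (blue) and 3 input (grey) libraries, with the mean and SD (n = 3) as a bar beside each group. Marker shapes give the replicate number or input title, and inputs are not paired with fractions. In each cluster HRS replicate 3 is highest, at 165 CPM in HoxD up to 288 CPM in HoxB.

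The comparison of HRS with input asked what was retained beyond the amount of DNA present. All 4 clusters were higher in HRS than in input, and the fold in the edgeR fit ranged between 1.55 in HoxD and 1.75 in HoxB. That fit scales the libraries otherwise than CPM does. The folds of the mean CPM were smaller, at 1.49 in HoxA, 1.52 in HoxB, 1.41 in HoxC and 1.36 in HoxD. HoxA took 149, 124 and 207 CPM in HRS replicates 1, 2 and 3, against 116, 103 and 104 CPM in the D0, D12 and D21 inputs. HoxB took 173, 150 and 288 CPM in HRS, against 148, 125 and 129 CPM in input. Every HRS library lay above every input library in both clusters. HoxC took 147, 131 and 223 CPM in HRS, against 125, 115 and 115 CPM in input. HoxD took 130, 108 and 165 CPM in HRS, against 105, 93.3 and 97.6 CPM in input. The groups did not overlap in HoxC and HoxD either, and the order replicate 3, 1, 2 was the same in each cluster. The share of regions over the genome whose HRS and input libraries separate in this way was not counted.

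The log2 ratio of HRS over input was 0.77 ± 0.22 (SE) in HoxA (adjusted p 0.0149) and 0.81 ± 0.27 in HoxB (0.0313). It was 0.70 ± 0.23 in HoxC (0.0294) and 0.64 ± 0.19 in HoxD (0.0195). These are edgeR quasi-likelihood tests with Benjamini-Hochberg adjustment over the clusters, their flanks and 100 kb windows of the rest of the genome, of which 25.1% were called higher and 16.8% lower. Without HRS replicate 3 the 4 log2 ratios were 0.46, 0.39, 0.35 and 0.39 in the same order, each with a smaller adjusted p (at most 0.000198). Without the D12 or without the D21 input the 4 clusters kept ratios of 0.56 to 0.72 but missed the threshold, with adjusted p of 0.0679 to 0.117, and HoxB and HoxC missed it without D0 too (0.0581 and 0.0626). Scaled on library totals the median ratio of the 4 clusters was 0.53, against 0.73 in the main fit. The median over all regions was then -0.17, against 0.0047. Over all alternatives tried the adjusted p ran from 2.34e-06 to 0.117.

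HoxB lies on a chromosome whose share differed between libraries. Chromosome 11 took 6.79%, 6.97% and 8.70% of the counts in HRS replicates 1, 2 and 3, against 6.88%, 6.44% and 6.39% in D0, D12 and D21. Loop replicate 3 was raised as well (7.96%). With CPM taken on the total of chromosome 11 alone, HoxB held 2547, 2149 and 3316 in HRS, against 2147, 1944 and 2022 in input. The groups still did not overlap, and the log2 ratio on that scale was 0.39 (adjusted p 0.0219), against 0.81 on the library-wide scale. Scaled on their own chromosome totals, HoxA had 0.65, HoxC 0.51 and HoxD 0.45, so all 4 ratios were lower and HoxB was the lowest. The median over all regions was lower as well, at -0.16 against 0.0047 in the main fit, with 18.2% of regions called higher and 35.2% lower.

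Retention was spread along the clusters rather than held by a few places. The 4 clusters hold 58 whole bins of 10 kb, and 42 of them (72.4%) were called higher in HRS than in input, against 15.2% of bins called higher and 9.16% lower over the genome. The bins called were 10 of 12 in HoxA, 14 of 19 in HoxB, 10 of 14 in HoxC and 8 of 13 in HoxD. All 58 ratios were above 0, and their median was 0.70, against -0.03 over all bins tested. Scaling on library totals shifted both (0.56 in the clusters, -0.15 over all bins), and 36 bins were then called, against 11.7% called higher and 17.5% lower over the genome. No bin was called lower (0 in edgeR and in DESeq2, and 0 at an unadjusted p under 0.05). DESeq2 called 34 higher, against 14% over the genome. With the D12 input left out, 22 bins (37.9%) passed, against 10.4% over the genome. With D21 left out, 19 (32.8%) passed, against 9.68%.

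The same was seen library by library, though not to the same degree. Each HRS library was set against the mean of the inputs, less the genome median of that ratio. In HRS replicate 1, 57 of 58 bins lay above 0 with a median of 0.49, in replicate 2 50 bins with a median of 0.26, and in replicate 3 all 58 with a median of 1.18. Replicate 2 was the weakest in each cluster, with medians of 0.24 (HoxC) to 0.30 (HoxA), and replicate 3 the strongest, with 0.84 (HoxD) to 1.32 (HoxA).

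**Figure D2:**
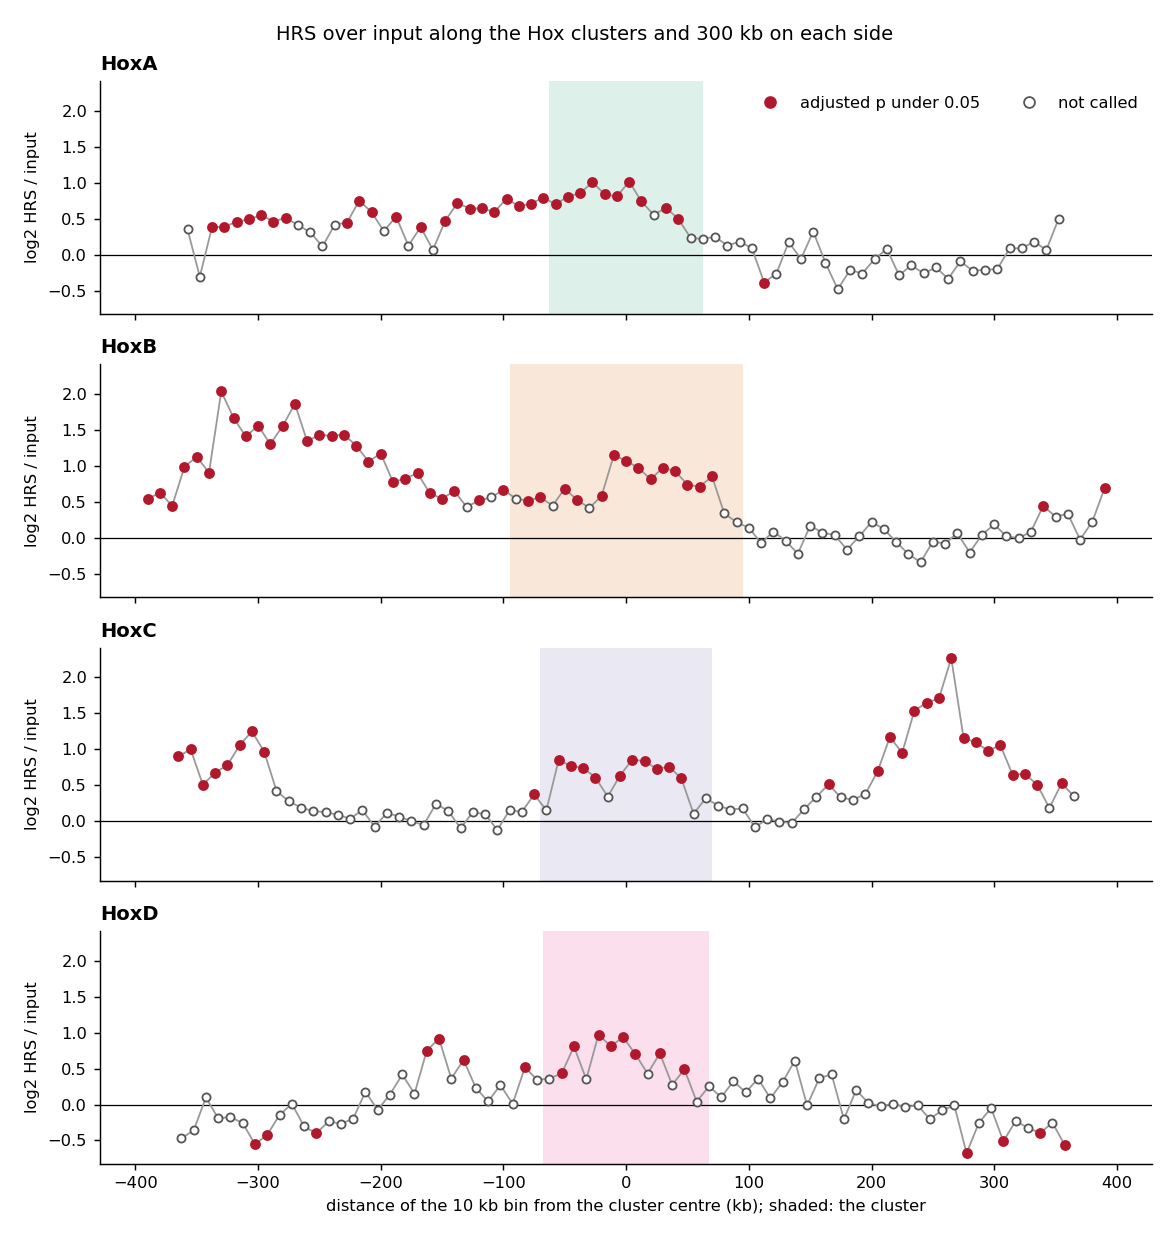
Log2 ratio of HRS over input from the edgeR fit in each 10 kb bin, against distance from the cluster centre in kb, over the cluster (shaded) and 300 kb on each side. Filled points passed an adjusted p of 0.05. The highest ratio inside a cluster lies between 0.86 in HoxC and 1.15 in HoxB, and the flanks differ from cluster to cluster.

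Within HoxA the ratio of HRS over input was 0.70 at the anterior edge (bin 52100001 to 52110000) and 1.01 and 1.02 at 52130001 and 52160001. It was lower towards the posterior edge, with 0.50 and 0.24 in the last 2 whole bins. A run of 17 adjoining called bins from 52010001 to 52180000 (170 kb) covered 8 bins of the cluster and 9 of the anterior flank. In HoxB the posterior part, from 96050001 to 96130000, lay between 0.42 and 0.69. The ratio was 1.15 in the next bin (96130001 to 96140000), and a run of 10 called bins ended at 96220000, followed by 0.34 and 0.22 at the anterior edge.

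HoxC formed a plateau with low edges. Its first bin, at the posterior end, had a ratio of 0.15, the next 0.85, and the last 2 bins 0.10 and 0.32. Between them 10 of 11 bins were called, the exception being 0.34 at 102790001. In HoxD the called bins were more scattered, with the 4 adjoining bins from 74520001 to 74560000 at 0.70 to 0.97 and the last bin at the anterior edge at 0.04.

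The flanks put each cluster in a different setting (over the genome 15.2% of bins were called higher and 9.16% lower). In the 50 kb next to HoxA the mean ratio of HRS over input was 0.71 on the anterior side, where 5 of 5 bins were called higher, and 0.05 on the posterior side, where none was called higher and 1 lower. In the 50 kb next to HoxB it was 0.57 on the posterior side (3 of 5 called) and -0.02 on the anterior side (0 of 5). Farther out on the posterior side, at 150 to 300 kb, all 15 bins beside HoxB were called with a mean of 1.26. HoxC had 50 kb of low ratios on both sides (means of 0.13 and 0.10). Beyond 150 kb, 8 of 15 bins were called on the posterior side, and on the anterior side 13 of 15 bins were called, up to 2.27 at 103070001. HoxD had means of 0.24 and 0.21 in the nearest 50 kb, and beyond 150 kb no bin was called higher on either side, while 3 and 4 were called lower.

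As regions of 300 kb, the anterior flank of HoxA had a log2 ratio of 0.52 (adjusted p 0.0146), the posterior flank of HoxB 1.15 (0.00803) and the anterior flank of HoxC 0.71 (0.0343). The other 5 flanks missed the threshold, at 0.01 (posterior, HoxA), 0.15 (anterior, HoxB), 0.36 (posterior, HoxC), -0.01 (posterior, HoxD) and -0.04 (anterior, HoxD). Without the D12 or the D21 input all 3 flank calls were lost, with adjusted p of 0.0991 and 0.116 beside HoxA, 0.069 and 0.0732 beside HoxB and 0.181 and 0.209 beside HoxC. The anterior flank of HoxC was also lost without D0 (0.0947), without HRS replicate 1 (0.0576), with median-of-ratios factors (0.0631) and in fragments over 200 bp (0.0618). The posterior flank of HoxC passed without HRS replicate 3 (0.23, adjusted p 0.0327) and with all 9 libraries in 1 fit (0.36, 0.0477). Over all 238 tested flank bins 80 were called higher and 8 lower, against 15.2% and 9.16% of bins over the genome. The median cluster bin was at 0.70 and the median flank bin at 0.18.

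A ratio within each library, of the count per fragment in a cluster over that in its 2 flanks, does not depend on library scaling. For HoxD its log2 was 1.07, 0.81 and 1.59 in HRS replicates 1, 2 and 3, against 0.61, 0.44 and 0.53 in the D0, D12 and D21 inputs. For HoxA it was 0.94, 0.71 and 1.40 in HRS, against 0.61, 0.49 and 0.53 in input. In both clusters every HRS library lay above every input library, with differences of 0.63 and 0.47. A two-sided exact permutation test gave p = 0.1 in both clusters, the smallest that 3 libraries against 3 can give, and 0.24 adjusted over the 12 comparisons of this kind. The differences were 0.41 and 0.28 without HRS replicate 3.

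For HoxB the log2 cluster-to-flank ratio averaged 0.14 ± 0.21 in HRS and 0.15 ± 0.08 in input, and for HoxC 0.33 ± 0.27 and 0.24 ± 0.07 (SD, n = 3 each). The groups overlapped in both (exact permutation p of 1 and 0.9). With flanks of 100 kb the differences between HRS and input were 0.36 for HoxA, 0.32 for HoxB, 0.47 for HoxC (p 0.1 each) and 0.24 for HoxD (p 0.3). For HoxA the difference was 0.20 (p 0.4) against the anterior flank alone and 0.71 (p 0.1) against the posterior flank alone. The standing of the clusters against their surroundings thus changed with the flank taken. Between HRS and Loop the differences were 0.26 for HoxA, 0.09 for HoxB, 0.14 for HoxC and 0.35 for HoxD (exact permutation p of 0.4, 0.7, 0.7 and 0.2), and the libraries overlapped in all 4 clusters.

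**Figure D3:**
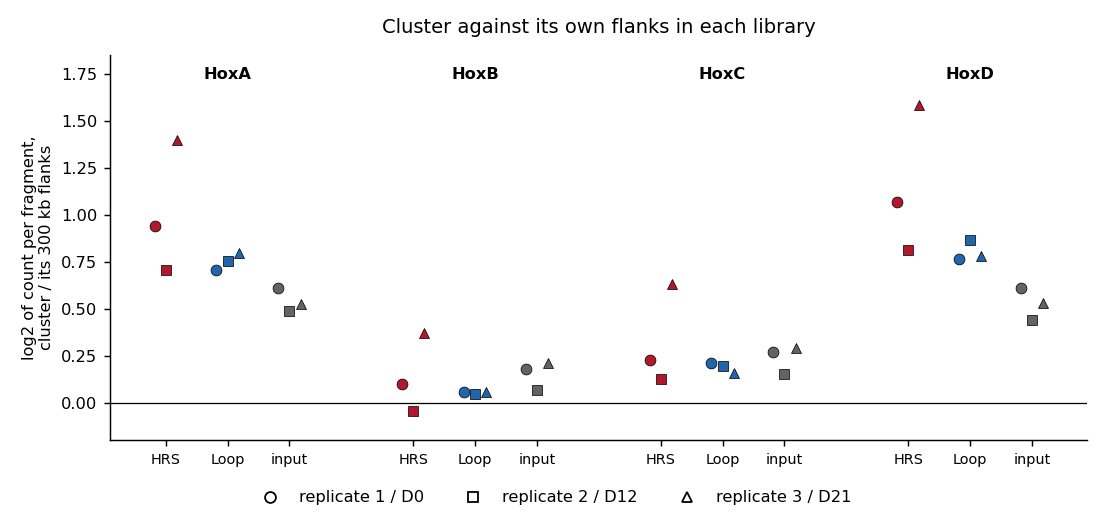
Log2 of the count per fragment in a cluster over that in its 300 kb flanks, for each HRS, Loop and input library. HRS libraries lie above all input libraries in HoxA and HoxD (lowest HRS value 0.71 and 0.81) and overlap them in HoxB and HoxC.

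The comparison of HRS with Loop asked which fraction a region went to. HoxA took 149, 124 and 207 CPM in HRS replicates 1, 2 and 3, against 117, 122 and 119 CPM in the Loop replicates. HoxB took 173, 150 and 288 CPM in HRS, against 125, 130 and 148 CPM in Loop. HoxC took 147, 131 and 223 CPM in HRS, against 118, 117 and 114 CPM in Loop. In these 3 clusters all HRS libraries lay above all Loop libraries, though the share of regions over the genome that separate so was not counted. HoxD took 130, 108 and 165 CPM in HRS, against 120, 127 and 116 CPM in Loop, so that HRS replicate 2 lay below all Loop libraries.

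HoxB (log2 ratio 0.69 ± 0.26 SE, adjusted p 0.0482) and HoxC (0.61 ± 0.22, 0.0386) were called higher in HRS than in Loop by edgeR, where 24% of regions were called higher and 25.5% lower. HoxA (0.51 ± 0.21, 0.0639) and HoxD (0.24 ± 0.18, 0.314) missed the threshold. With the replicate number as a block HoxA passed it too (0.46, adjusted p 0.0122), and HoxD did not (0.20, 0.216). HoxA also passed without HRS replicate 2 (0.69, adjusted p 0.0189). The calls of HoxB and HoxC were lost without any 1 of the Loop libraries (adjusted p 0.0796 to 0.147), and that of HoxB also without HRS replicate 1 (0.0549). Without HRS replicate 3 the ratios were 0.21, 0.28, 0.27 and -0.01 in HoxA, HoxB, HoxC and HoxD, and HoxB and HoxC passed (0.0338 and 0.0103). The adjusted p over all alternatives ran from 1.86e-06 (HoxB) to 0.948 (HoxD). In the main fit the anterior flank of HoxA was called higher (0.52, adjusted p 0.00778). So were the posterior flank of HoxB (0.88, 0.0199) and the anterior flank of HoxC (0.58, 0.0431). The other flanks missed the threshold, at -0.21 (posterior, HoxD) to 0.22 (posterior, HoxC). The calls beside HoxB and HoxC were lost without any 1 Loop library (0.0582 to 0.214), and that beside HoxA in fragments over 200 bp (0.0814). High HRS over Loop was thus not confined to the clusters.

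Of the 58 bins, 30 (51.7%) were higher in HRS than in Loop, against 17.8% of bins called higher and 20.4% lower over the genome. None was called lower, with 1 at an unadjusted p under 0.05 and 0 in DESeq2, which called 22 higher (16.9% over the genome). With the replicate block 34 were called higher and 1 lower, against 20.4% and 22.8% over the genome. By cluster 7 of 12 were called in HoxA, 14 of 19 in HoxB, 6 of 14 in HoxC and 3 of 13 in HoxD. Without HRS replicate 3, 17 bins (29.3%) were called higher and 6 (10.3%) lower, against 17.3% and 22% over the genome. Without Loop replicate 1, 19 (32.8%) were called higher, against 14.8%. Of the 238 tested flank bins, 74 were called higher and 32 lower in the main fit.

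The fractions differed in fragment length, and this bears on the comparison. In the clusters, fragments of up to 200 bp took 31.95% ± 1.23 of the HRS counts, 56.7% ± 3.597 of the Loop counts and 29.3% ± 0.28 of the input counts (SD, n = 3 each). In fragments of up to 200 bp the 4 clusters averaged 213 CPM in HRS, 279 CPM in Loop and 134 CPM in input. In fragments of 201 to 1000 bp they averaged 350 CPM in HRS, 173 CPM in Loop and 247 CPM in input, and in longer ones 101.3 CPM in HRS, 38.9 CPM in Loop and 77.4 CPM in input. HRS over Loop was thus, in log2, -0.38, 1.01 and 1.38 from the shortest class to the longest. The same classes over the whole genome had -0.78, 0.44 and 0.81, so the clusters stood above the genome in each class. Against input the clusters had 0.67, 0.50 and 0.39, and the genome 0.19, -0.07 and -0.10.

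The fits were therefore repeated with an expected count per library from 20 classes of fragment length. HRS over Loop was then 0.78 ± 0.20 (log2 ± SE) in HoxA (adjusted p 0.0121), 0.70 ± 0.26 in HoxB (0.0582), 0.69 ± 0.21 in HoxC (0.0275) and 0.56 ± 0.17 in HoxD (0.0274), with 24% of regions called higher and 21.2% lower. HoxA and HoxD, the 2 clusters richest in short fragments, passed the threshold that they had missed, and HoxB missed it. With the block added all 4 passed, at 0.73, 0.62, 0.64 and 0.53 (adjusted p of at most 0.00608). Without HRS replicate 3 all 4 passed as well, at 0.50, 0.29, 0.37 and 0.34 (at most 0.0309), a fit chosen after the data were examined.

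With length corrected, 39 of the 58 bins were higher in HRS than in Loop and all 58 ratios were above 0, against 14.9% of bins called higher and 8.44% lower over the genome. The calls were 12 of 12 in HoxA, 8 of 19 in HoxB, 10 of 14 in HoxC and 9 of 13 in HoxD. No bin was lower (0 at an unadjusted p under 0.05), and 49 were higher with the block added, against 16.5% over the genome. The ratio of HRS over input hardly moved: 42 bins were called again, against 15.5% called higher and 9.71% lower over the genome, and the clusters had 0.73, 0.81, 0.69 and 0.59 (adjusted p of at most 0.0267).

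**Figure D4:**
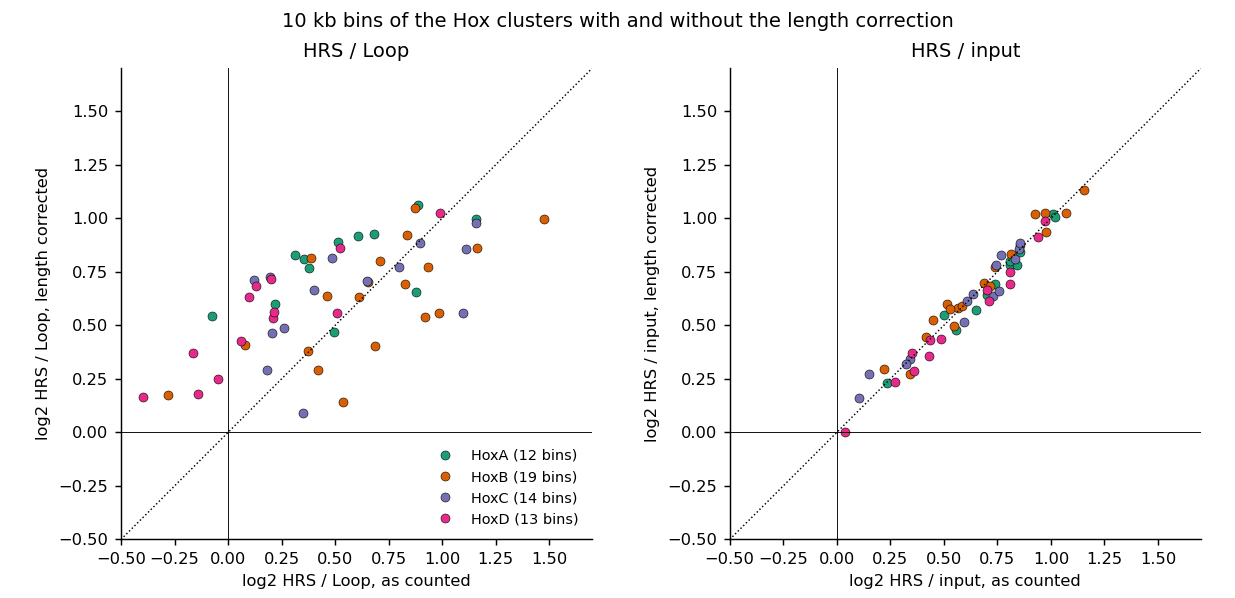
Log2 ratios of the 58 bins of 10 kb as counted (horizontal) and with fragment length corrected (vertical), for HRS over Loop (left) and HRS over input (right), coloured by cluster. The dotted line marks equal values. The HRS over Loop ratios move off the line, with all 58 above 0 after the correction, and the HRS over input ratios stay close to it.

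The named bins were, per cluster, those with the highest and the lowest ratio of HRS over Loop among bins whose 3 replicate-numbered pairs shared a sign. In HoxA the highest was 52130001 to 52140000, with 426, 317 and 388 counts in the HRS libraries, 203, 220 and 234 in the Loop libraries and 305, 251 and 213 in the inputs. Its ratio was 1.16 ± 0.18 (SE, adjusted p 4.69e-05). In HoxB 96180001 to 96190000 held 306, 258 and 360 counts in the HRS libraries, 138, 167 and 134 in the Loop libraries and 294, 175 and 204 in the inputs, a ratio of 1.47. These bins hold 9 fragments each, with medians of 834 and 742 bp, and with length corrected both had a ratio of 1.00.

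In HoxC 102810001 to 102820000 held 744, 566 and 853 counts in the HRS libraries, 423, 491 and 378 in the Loop libraries and 622, 537 and 511 in the inputs, a ratio of 1.16. In HoxD 74520001 to 74530000 held 657, 437 and 698 counts in the HRS libraries, 388, 407 and 402 in the Loop libraries and 440, 402 and 429 in the inputs, a ratio of 0.99. In both bins every HRS library had more counts than every Loop library although the HRS tables were smaller. The highest bins were chosen for a high HRS over Loop with a shared sign of the pairs. Their separation of HRS from Loop therefore gives no separate support for retention. The lowest bins were 52100001 in HoxA (0.38, adjusted p 0.0969), 96220001 in HoxB (-0.28, 0.208), 102870001 in HoxC (0.18, 0.431) and 74600001 in HoxD (-0.05, 0.844). None of these passed the threshold. Among bins whose pairs differed in sign, still lower ratios were found at 52190001 in HoxA (-0.08), 102840001 in HoxC (0.12) and 74480001 in HoxD (-0.40), none of them called. The bin at 96220001 had -0.55 (adjusted p 0.00223) without HRS replicate 3, and without replicate 3 of both fractions -0.43 (0.00261), so that it was called lower there. With length corrected the 4 named lowest bins had 0.77 (adjusted p 0.00137), 0.17, 0.29 and 0.25.

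Single fragments showed the length pattern most directly. Of the 854, 756 passed the filter on low counts in the fit of HRS over Loop, and 207 were higher and 63 lower, against 8.02% of fragments called higher and 14.8% lower over the genome. In each fit of single fragments, a fragment could pass this filter through the libraries of 1 group alone. How many of the called fragments did so was not counted, so the numbers of calls depend on the filter. All 207 were longer than 200 bp and all 63 were at most 200 bp long. With length corrected 94 were higher, 30 of them at most 200 bp long, and none was lower (0 at an unadjusted p under 0.05), against 4.21% called higher and 1.4% lower over the genome. Without HRS replicate 3 the uncorrected counts were 79 higher (10.2%) and 87 lower (11.25%), against 4.88% and 12.6% over the genome. They were 133 and 27 without HRS replicate 1 (4.5% and 9.92% over the genome) and 119 and 63 without Loop replicate 1 (4.54% and 13.1%). They were 185 and 28 without HRS replicate 2 (4.91% and 10.9%), and 161 and 30 without Loop replicate 2 (5.57% and 12%).

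**Figure D5:**
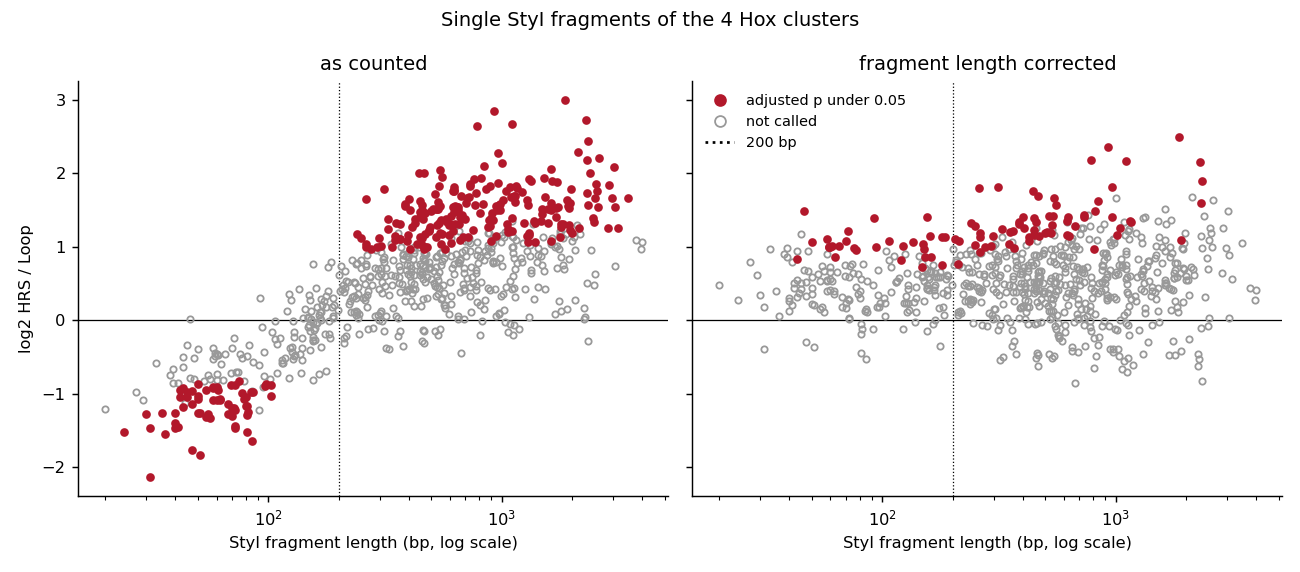
Log2 ratio of HRS over Loop of the 756 tested StyI fragments of the Hox clusters against fragment length (log scale), as counted (left) and with fragment length corrected (right). Filled points passed an adjusted p of 0.05. As counted, calls lie above 0 only right of 200 bp and below 0 only left of it. With the correction 94 calls lie on both sides of 200 bp, all above 0.

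The fragments named for the highest ratio of HRS over Loop were 782 to 3039 bp long. They are not a ranking by HRS over input. In HoxA 52166764 to 52167692 (928 bp) held 52, 70 and 153 counts in the HRS libraries, 13, 22 and 11 in the Loop libraries and 28, 32 and 37 in the inputs. HRS exceeded Loop by 2.84 ± 0.41 on the log2 scale (SE, edgeR adjusted p 7.28e-07), 2.36 with length corrected, and its ratio over input was 1.99 (adjusted p 0.00127). In HoxB 96147452 to 96148234 (782 bp) held 38, 44 and 104 counts in the HRS libraries, 18, 9 and 9 in the Loop libraries and 21, 7 and 27 in the inputs, with ratios of 2.65 over Loop and 2.24 over input. They lie in the bins at 52160001 and 96140001, whose ratios over input were 1.02 and 1.07. These bin ratios include the counts of the fragments themselves and so give no separate support. The 2 fragments themselves had 1.15 and 1.39 over input without HRS replicate 3, and both passed.

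In HoxC 102751200 to 102752303 (1103 bp) held 56, 56 and 128 counts in the HRS libraries, 16, 16 and 13 in the Loop libraries and 50, 41 and 32 in the inputs, a ratio of 2.67 over Loop and 1.46 over input. In HoxD 74522517 to 74524808 (2291 bp) held 61, 33 and 31 counts in the HRS libraries, 11, 7 and 3 in the Loop libraries and 14, 15 and 31 in the inputs, a ratio of 2.72 over Loop and 1.42 over input. In the HoxD fragment HRS replicate 3 equals the D21 input in raw counts, from a smaller table. Over input the HoxC fragment had 0.69 without HRS replicate 3 (adjusted p 0.108) and missed the threshold without any 1 input (0.0528 to 0.109). The HoxD fragment missed it without HRS replicate 1, D0 or D12 (0.0858 to 0.112). The other 4 fragments that the rule named in this direction were 969 to 3039 bp long, with ratios of at least 2.08, and rested on 1 to 11 counts a library in Loop. Of these 4, the fragments at 96096632 (adjusted p 0.0506) and 74503275 (0.0916) missed the threshold with length corrected, and 52134553 missed it without HRS replicate 3 (0.078). Over input 52134553, 96096632 and 74503275 missed it (0.139, 0.197 and 0.294). The HoxD fragment at 74522517, the HoxB fragment at 96147452 and these other 4 had too few Loop counts to pass the low-count filter without their HRS libraries. They were then named for a high HRS over Loop, so these ratios give no separate support for retention. In the fit over input, the fragments at 96147452 and 52134553 also had too few input counts to pass the filter without their HRS libraries.

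The fragments most shifted to Loop were all under 60 bp. In HoxD 74588481 to 74588532 (51 bp) held 21, 39 and 39 counts in the HRS libraries, 124, 176 and 107 in the Loop libraries and 44, 42 and 61 in the inputs, a ratio of -1.84 ± 0.34 (SE, adjusted p 4.09e-05). In HoxB 96227010 to 96227046 (36 bp) held 69, 54 and 64 counts in the HRS libraries, 179, 235 and 204 in the Loop libraries and 66, 56 and 75 in the inputs, a ratio of -1.54. With length corrected these were -0.36 and 0.05, and neither passed the threshold. Of the 8 fragments named in this direction, none passed with length corrected.

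The 31 bp fragment at 52131419 in HoxA and the 24 bp fragment at 96055757 in HoxB behaved unlike the others. The HoxA fragment had 1, 11 and 0 counts in HRS, 18, 41 and 0 in Loop and 0 in each input, and the HoxB fragment 14, 23 and 0 in HRS, 34, 81 and 0 in Loop and 0 in each input. In all, 19 Hox fragments, of 6 to 35 bp, were counted only in replicates 1 and 2 of the fractions. In fragments of 19 to 35 bp (25 in the clusters) replicates 1, 2 and 3 summed to 190, 193 and 105 counts in HRS and 401, 759 and 154 in Loop, and D0, D12 and D21 to 71, 88 and 101. Calls that rest on such fragments therefore compare libraries that counted them with libraries that did not. The fragments with the highest counts were also short. They were 107 bp in HoxA (1130 counts over the 9 libraries), 59 bp in HoxB (1095), 103 bp in HoxC (1108) and 151 bp in HoxD (962).

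Against input, 774 fragments passed the filter, and 127 were higher in HRS, against 4.57% called higher and 1.74% lower over the genome. None was lower (6 at an unadjusted p under 0.05), and with length corrected 132 were higher and none lower (3 at an unadjusted p under 0.05), against 4.5% and 1.47%. The number of calls moved with single libraries. It was 206 (26.2% of those tested) without HRS replicate 2 and 69 (8.85%) without HRS replicate 3, against 4.48% and 4.53% over the genome. Without the D0, D12 and D21 inputs it was 36 (4.59%), 16 (2.04%) and 14 (1.79%), against 1.79%, 1.63% and 1.17%. Without D12 or D21 the clusters thus lay near the genome's share. Fragments lower numbered 1 and 2 without HRS replicates 2 and 3, against 1.7% and 2.11%.

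The comparison of Loop with input showed where released DNA was over- or under-represented. HoxD was higher in Loop, with 120, 127 and 116 CPM against 105, 93.3 and 97.6 CPM in the D0, D12 and D21 inputs, a log2 ratio of 0.34 ± 0.07 (SE, edgeR adjusted p 0.00452), where 13.1% of regions were called higher and 13.7% lower. HoxA (0.19, adjusted p 0.0503), HoxB (0.05, 0.696) and HoxC (0.02, 0.817) missed the threshold. With length corrected the HoxD ratio was 0.01 (adjusted p 0.97), HoxA had -0.07, HoxB 0.09 and HoxC -0.03, and none passed, against 0.0315% of regions called higher and 0.0118% lower. HoxA passed without Loop replicates 1 or 3 (adjusted p 0.049 and 0.0474) or the D0 input (0.014), uncorrected.

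Of the 58 bins 21 were higher and 8 lower in Loop than in input, against 21.5% called higher and 18% lower over the genome. Scaled on library totals they numbered 16 and 15, against 13.7% and 27.7%. After the length correction 0 were called in either direction (3 higher and 4 lower at an unadjusted p under 0.05), against 0.27% and 0.0794%. Without the D0 input 2 bins (3.45%) were lower, against 11.5% over the genome. Without Loop replicate 2 or the D12 input 5 (8.62%) were, against 14.6% and 10.6%. Of 758 tested fragments 157 were higher in Loop and 40 lower, against 18.7% called higher and 4.24% lower over the genome, and 155 of the 157 were at most 200 bp long while all 40 were longer. After the correction 2 were higher and 0 lower (35 at an unadjusted p under 0.05), against 0.622% and 0.12%. The 40 became 12 or 13 (1.54% to 1.69%) without any 1 input, against 1.28% to 1.61% over the genome. Without Loop replicate 1 they became 18 (2.31%), against 2.89%. The cluster-to-flank ratio was higher in Loop than in input by 0.28 in HoxD and 0.21 in HoxA, and the difference was -0.10 in HoxB, with no overlap of the libraries (exact permutation p 0.1, adjusted 0.24, each). In fragments over 200 bp these differences were -0.02, -0.07 and 0.04.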

How the data were processed

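Per the labels' protocols, DNA of the HRS and Loop fractions was ligated to an adaptor at StyI ends and trimmed by MmeI to short tags before sequencing, and input DNA was genomic DNA. The authors deposited, for each library, the count of tags per StyI fragment with its coordinates. The build is mm9 and CASAVA 1.8.2 is named, per the submitters' processing notes. The mapping rules, not given in the sources used here, could affect the counts of fragments shorter than a tag. A second set of tables, of repeats, was not used here, and 0 columns belonged to other samples.

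Counts were summed over the clusters, their 300 kb flanks and 100 kb windows elsewhere, over 10 kb bins, or kept per fragment. edgeR 4.0.16 (R 4.3.3; filterByExpr with a minimum count of 10, TMM scaling, quasi-likelihood fit, Benjamini-Hochberg threshold of 0.05) was fitted to each whole table for each pair of groups, and SE is the log2 ratio over the root of F. DESeq2 1.42.0 was an alternative. The length correction gave each library an expected count from 20 classes of fragment length over the genome, used as an offset. Scripts were tested on simulated data. Single libraries were set over the mean input with a pseudocount of 0.05 CPM in bins with a mean input count of at least 10.

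Replicate numbers come from the titles of the fractions. Deviations from the group means correlated between same-numbered HRS and Loop libraries (0.16, 0.10 and 0.22 over 246405 bins). The numbers were therefore taken to pair the fractions in the fits with a replicate block and in the choice of named bins. The main fits did not use this pairing. HRS replicate 2 correlated slightly more with Loop replicate 1 (0.11). Inputs carry no such number and were not paired. Bins were named as stated beside them, and fragments as the called ones with the greatest ratio in each direction, up to 2 per cluster, with the highest total count added. The clusters, lists and tests were chosen with earlier results of these data known.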

Additional observations from a re-analysis of the deposited data

How the results depend on the processing

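The higher HRS over input of the 4 clusters kept its direction under every alternative tried, and passed under all of them except those that leave out an input. Depth limits the single fragments, where 1 library often decides a call, and 3 libraries a group cannot reach an exact p under 0.1. The replicate block moved the HRS over Loop call of HoxA (0.46, now past the threshold) and called 1 bin lower, and the HoxA bin at 52100001 also passed (0.36), and it changed no other call of a cluster or named item. The cause of each change below was not tested, except that the length correction and the fragments over 200 bp act on fragment length by construction, and smaller bins raise the number of bins.

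For HRS over Loop, HoxA also passed with library totals (0.42), chromosome totals (0.48), DESeq2 (0.53), all 9 libraries in 1 fit (0.57), fragments over 200 bp (0.83), the length correction (0.78), and that correction with the replicate block (0.73) or without HRS replicate 3 (0.50). HoxD passed with fragments over 200 bp (0.56), the length correction (0.56), and the correction with the block (0.53) or without HRS replicate 3 (0.34). HoxB missed the threshold with median-of-ratios factors (0.72), the length correction (0.70) and fragments over 200 bp (0.66), and HoxC with median-of-ratios factors (0.63). With replicate 3 of both fractions left out HoxA passed (0.23) and HoxD had -0.016.

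For Loop over input, HoxA passed with DESeq2 (0.20), chromosome totals (0.17) and limits drawn in by 10 kb (0.20), and had -0.071 with the length correction and -0.075 in fragments over 200 bp. HoxB had -0.11 with chromosome totals. HoxC had -0.022 with library totals, -0.038 with chromosome totals, -0.027 with the length correction and -0.037 in fragments over 200 bp. HoxD missed the threshold with all 9 libraries in 1 fit (0.34), the length correction (0.0101) and fragments over 200 bp (0.0302).

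In this paragraph the share over the genome stands in brackets. Bins higher in HRS than in Loop numbered 18 at an adjusted p of 0.01 (11.7%) and 55 of 118 in bins of 5 kb (14.6%). With the block and the length correction they numbered 49 (16.5%). Bins lower numbered 3 in bins of 5 kb (18.9%), 1 with library totals (18.8%), 1 with the block (22.8%) and 6 without replicate 3 of both fractions (22.6%). Bins higher in HRS than in input numbered 24 at an adjusted p of 0.01 (10.1%) and 72 in bins of 5 kb (11.8%). For Loop over input, bins higher numbered 12 with all 9 libraries in 1 fit (17.1%) and 41 in bins of 5 kb (22.5%). They numbered 0 with the length correction (0.27%) or fragments over 200 bp (0.387%). Bins lower numbered 3 at an adjusted p of 0.01 (8.09%), 15 with library totals (27.7%), 2 with all 9 libraries (14.5%) and 14 in bins of 5 kb (13.5%). They numbered 0 with the length correction (0.0794%) or fragments over 200 bp (0.064%). With the length correction, fragments numbered 94 higher (4.21%) and 0 lower (1.4%) in HRS than in Loop. In Loop against input they numbered 2 higher (0.622%) and 0 lower (0.12%). With a minimum count of 20, 1 fragment was lower in HRS than in input (3.44%) and 86 in Loop than in input (12.2%).

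In the cluster-to-flank ratio, HRS minus Loop was -0.052 for HoxA and -0.23 for HoxB with the left flank alone, -0.021 for HoxB in fragments over 200 bp, -0.017 for HoxC with the right flank alone and -0.075 for HoxD with flanks of 100 kb. HRS minus input for HoxB was -0.38 with the left flank alone and 0.60 with the right flank alone. It was 0.32 for HoxB with flanks of 100 kb and 0.024 in fragments over 200 bp. For HoxC it was -0.059 with the right flank alone. Loop minus input in fragments over 200 bp was -0.073 for HoxA, 0.045 for HoxB and -0.0199 for HoxD.

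Leaving out 1 library at a time, HRS over Loop ranged over 0.21 to 0.69 in HoxA, 0.28 to 0.90 in HoxB, 0.27 to 0.78 in HoxC and -0.0076 to 0.39 in HoxD. HRS over input ranged over 0.46 to 0.95, 0.39 to 1.01, 0.35 to 0.87 and 0.39 to 0.80 in the same order. Loop over input ranged over 0.16 to 0.26 in HoxA, -0.043 to 0.13 in HoxB and -0.0042 to 0.071 in HoxC. Bins higher in HRS than in Loop ranged over 17 to 35, bins lower over 0 to 6, fragments higher over 79 to 185 and fragments lower over 27 to 87. In HRS over input, bins higher ranged over 19 to 49, fragments higher over 14 to 206 and fragments lower over 0 to 2. In Loop over input, bins lower ranged over 2 to 11 and fragments lower over 12 to 35. The cluster-to-flank difference of HRS and Loop ranged over -0.027 to 0.18 in HoxB and -0.0126 to 0.24 in HoxC, and that of HRS and input over -0.12 to 0.085 in HoxB and -0.061 to 0.19 in HoxC.

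Some flanks and named bins near 0 changed sign, and some flanks were called under other settings. Some named short fragments far below 0 also changed sign with the length correction. The anterior flank of HoxB, HRS over Loop, had -0.074 with library totals, -0.15 with chromosome totals, -0.0098 with the block, -0.0046 with the block and length correction, -0.10 without replicate 3 of both fractions, -0.17 with the correction and without HRS replicate 3, and -0.18 to 0.11 leaving out 1 library. Over input it had -0.0404 with library totals, -0.037 with that correction without HRS replicate 3, and -0.043 to 0.24 leaving out 1 library. With chromosome totals it was called lower than input (-0.23, adjusted p 0.0358), and so was the anterior flank of HoxD (-0.21, 0.0412), where 35.2% of regions were. HRS over Loop of the posterior flank of HoxD was called lower with chromosome totals (-0.27, 0.00655) and library totals (-0.28, 0.0159). It was also called lower without HRS replicate 3 (-0.22, 0.0186) or replicate 3 of both fractions (-0.22, 0.00218). The posterior flank of HoxC was called higher with the correction and without HRS replicate 3 (0.20, 0.00573). The posterior flank of HoxA, HRS over input, had -0.0106 with median-of-ratios factors, -0.0105 with DESeq2, -0.17 with library totals, -0.11 with chromosome totals, -0.0403 in fragments over 200 bp, -0.029 with the correction and without HRS replicate 3, and -0.054 to 0.037 leaving out 1 library. The HoxB bin at 96220001, HRS over Loop, had 0.17 with the correction and 0.16 with the block added, and it was called lower without HRS replicate 3 (-0.55) and without replicate 3 of both fractions (-0.43). The HoxC bin at 102870001 ranged over -0.055 to 0.30 leaving out 1 library. The HoxD bin at 74600001, HRS over Loop, had 0.25 with the correction, 0.25 with the block added, and 0.12 with the correction and without HRS replicate 3. This HoxD bin had 0.021 in fragments over 200 bp, 0.0031 with all 9 libraries, and -0.20 to 0.0901 leaving out 1 library. Over input it had -0.093 with library totals, -0.11 with the correction and without HRS replicate 3, and -0.08 to 0.18 leaving out 1 library. With the correction the short fragments had, HRS over Loop, 0.20 at 52180301 in HoxA, 0.055 at 96227010 and 0.27 at 96055757 in HoxB, and 0.18 at 102779437 and 0.12 at 102837037 in HoxC. In the main fit these fragments were called lower, at -1.46, -1.54, -1.52, -1.47 and -1.47 in the same order.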
